A study of Mus musculus with 20 samples.

Results

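The comparison of the J27a line with the J2 lf/lf line of mouse brain was examined across all expressed genes. It rests on 6 of the 20 RNA-seq libraries of the series, 3 labelled J27a and 3 labelled J2 lf/lf, chosen by genotype label alone. The series profiled brains of control and single-isoform knockout mice kept on a normal diet. All libraries carry the strain label C57/Bl6J, and both genotypes were compared with 3 Wild type and 3 J27b libraries as further points of reference. The labels spell out neither the codes nor the alleles behind them, and age, sex and the promoter of any recombinase are not given in the labels. The labels also do not say that replicates came from separate animals, so each p-value refers to spread between samples. In the main test that spread was estimated over all 20 libraries, not only the 6 compared. Every J27a library has a title number of 16 to 18 and every J2 lf/lf library one of 7 to 9. The labels give no batch, and any difference tied to that order cannot be told apart from genotype.

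JNK kinases are the stress-activated branch of the MAP kinase family. Upstream kinases (MAP3Ks, then Map2k4 and Map2k7) phosphorylate JNK, scaffold proteins hold the cascade together, dual-specificity phosphatases end the signal, and targets include Jun and other AP-1 factors as well as microtubule-associated proteins. Mapk8, Mapk9 and Mapk10 encode JNK1, JNK2 and JNK3, and brain is the main site of JNK3. Transcripts of Mapk9 carry one of a pair of mutually exclusive exons in the kinase domain.

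The exon pair of Mapk9 is shown because the series concerns single isoforms of JNK and the counts analysed here add both forms together. In GENCODE release M21 on mm10, Mapk9 lies on the plus strand of chromosome 11 from 49846751 to 49886421. Of its 7 annotated coding transcripts, 4 hold the upstream exon (chr11:49873836-49873907), 3 hold the downstream exon (chr11:49874264-49874335) and 0 hold both. Each exon is 72 bases of coding sequence and 356 bases separate them. Capitals mark the 25 positions at which the exons differ, and the other 47 bases (65.3%) are identical.
Mapk9 upstream exon: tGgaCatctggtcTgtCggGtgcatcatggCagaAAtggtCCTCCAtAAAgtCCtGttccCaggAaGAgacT
Mapk9 downstream exon: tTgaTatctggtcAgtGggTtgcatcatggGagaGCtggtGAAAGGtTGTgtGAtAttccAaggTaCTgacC
The labels do not state which exon a line code refers to. Because the deposited values are per gene, use of one exon over the other was not measured here.

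Estimated counts per gene were summed to 24074813 to 32372145 per library among these 6. Values are given as CPM, read counts scaled to library size with edgeR's TMM factors, and differences as log2 fold change of J27a minus J2 lf/lf from edgeR's quasi-likelihood test fitted on all 20 libraries. Neuronal transcripts were abundant, as in brain: Snap25, a synaptic vesicle fusion protein, lay between 2252 and 2594 CPM in all 6 libraries. Of 16063 genes tested, 1 (0.00623%) passed a Benjamini-Hochberg adjusted p of 0.05, and it was higher in J27a, with 0 genes lower. At unadjusted p under 0.05 there were 1022 genes (6.36%), where 803 would be below that value if no gene differed. Of them 524 (3.26%) were higher and 498 (3.1%) lower in J27a. The DESeq2 Wald test called 26 genes, 17 higher and 9 lower. Among the 17 was Gm7367 at a log2 fold change of 38.6, a size that libraries of this depth cannot give. Fitted on the 6 libraries alone, edgeR also called 26, 12 higher and 14 lower, and 11 genes were shared by these lists. Against Wild type, J27a had 0 genes (0%) past the threshold and 777 (4.84%) at unadjusted p under 0.05. J2 lf/lf against the same Wild type libraries had 1 (0.00623%) and 1276 (7.94%).

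Gt(ROSA)26Sor, a noncoding RNA from Rosa26, a site into which transgenes are often placed, was the gene that passed. It measured 7.14, 5.44 and 6.87 CPM in J27a and 0.195, 0.0825 and 0.310 CPM in J2 lf/lf. Every J27a library was far above every J2 lf/lf library. The underlying estimated counts were 199, 144 and 169 against 5, 2 and 10. The log2 fold change was 4.95 (SE 0.28, edgeR adjusted p = 3.46e-10). The counts summed to 512 and 17, and their ratio after scaling to library size was 31.4, with a 95% Poisson interval of 19.4 to 54.2 that covers counting error only. Wild type libraries measured 5.70, 3.99 and 5.91 CPM and J27b libraries 6.51, 5.56 and 5.88 CPM, so only the J2 lf/lf libraries were low among these 4 genotypes. The log2 fold change of J27a was 0.32 from Wild type (95% interval -0.06 to 0.71) and 0.12 from J27b (-0.27 to 0.50), and neither passed. The transcript stayed past the threshold in all 20 alternative analyses, with log2 fold changes from 3.61 to 5.49.

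Gt(ROSA)26Sor lies on the minus strand of chromosome 6 (113067428 to 113077333), and its end overlaps Thumpd3 on the opposite strand (113046225 to 113068273). The sources used here do not say whether reads were counted by strand, so reads in the overlap cannot be assigned with certainty. Thumpd3, which encodes a THUMP-domain protein, moved the other way: 22.2, 19.04 and 19.95 CPM in J27a against 28.5, 25.1 and 23.1 CPM in J2 lf/lf. The groups did not overlap, but the log2 fold change of -0.32 (SE 0.12) did not pass (edgeR adjusted p = 0.614). Setd5, the neighbour on the other side, measured 114 to 130 CPM in J27a and 104 to 120 CPM in J2 lf/lf (0.09). Both neighbours were picked for their position after their values were seen.

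**Figure D1:**
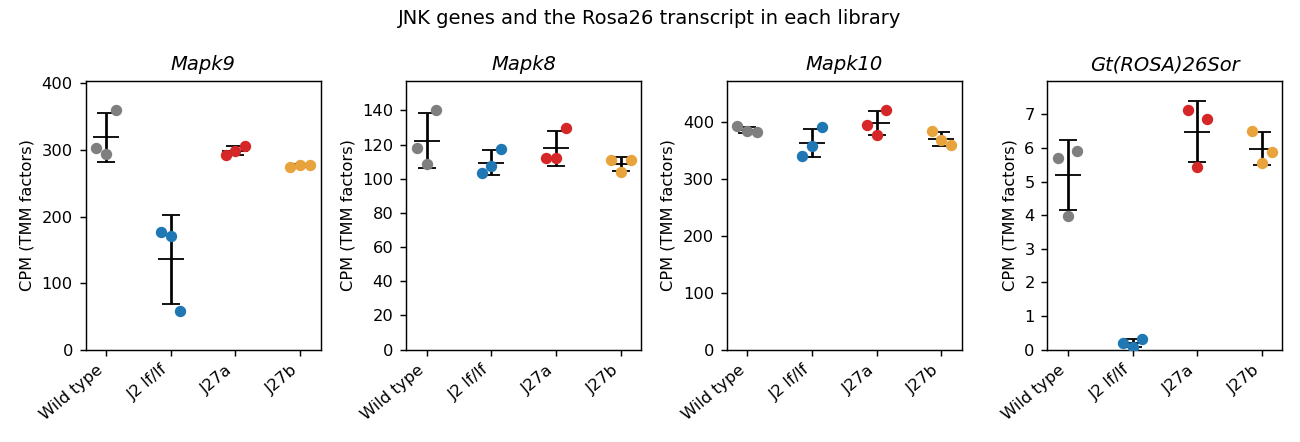
CPM of Mapk9, Mapk8, Mapk10 and Gt(ROSA)26Sor in each library of 4 genotypes, with 3 points per genotype, the mean as a horizontal line and the SD as bars. The 3 J2 lf/lf libraries lie below all others for Mapk9 and Gt(ROSA)26Sor, with replicate 3 lowest for Mapk9, and the groups overlap for Mapk8 and Mapk10.

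Mapk9 measured 292, 298 and 306 CPM in J27a and 177, 171 and 58.1 CPM in J2 lf/lf. No J27a library came near a J2 lf/lf library. The J2 lf/lf libraries were unequal among themselves, replicate 3 holding far less Mapk9 than the others. The means were 298.6 ± 6.73 and 135.5 ± 67.1 CPM (SD, n = 3 each). The log2 fold change of 1.14 (SE 0.27) gave an unadjusted p of 0.00081 and did not pass after adjustment (edgeR adjusted p = 0.42). Without J2 lf/lf replicate 3 the change was smaller, 0.78, and passed (edgeR adjusted p = 2.69e-05). It also passed in the DESeq2 Wald test on all libraries (adjusted p = 0.0253). For Gt(ROSA)26Sor, replicate 3 was the highest J2 lf/lf library and still far below every library of the other groups. J27a lay close to Wild type (303, 294 and 360 CPM) and J27b (274, 277 and 278 CPM) for Mapk9, with log2 fold changes of -0.09 and 0.11.

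Mapk8 measured 112, 112 and 130 CPM in J27a and 104, 107 and 118 CPM in J2 lf/lf, with overlap between the groups and a log2 fold change of 0.11 (SE 0.09). Mapk10 measured 396, 378 and 422 CPM against 341, 358 and 391 CPM, again with overlap, and its change of 0.13 (SE 0.07) had an unadjusted p of 0.0555. Neither passed, and the Mapk10 change turned to -0.0207 with the title number (above 10 or not) as a term in the fit. On the TPM scale, which accounts for transcript length, Mapk9 made up 46.1%, 47.5% and 45.2% of the summed TPM of the 3 JNK genes in J27a, and 37.2%, 35.3% and 14.5% in J2 lf/lf. The corresponding shares were 46.8%, 47.0% and 50.3% in Wild type and 45.2%, 46.6% and 46.7% in J27b. The summed JNK TPM was 329, 326 and 351 in J27a and 247, 257 and 203 in J2 lf/lf, so the sum was lower in every J2 lf/lf library.

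Genes around Mapk9 were examined next. Among the 20 tested genes on each side, from 46235531 to 51604489 on chromosome 11, 0 of 40 passed and their median log2 fold change was -0.04. At unadjusted p under 0.05 there was 1, Tgtp2, an interferon-inducible GTPase (log2 fold change -1.09).

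The genes that act around JNK differed little. Of 11 upstream kinases 9 had positive changes (median 0.04), beside 49.4% positive and a median of -0.0021 over all tested genes, and 0 passed. Map2k4 measured 218 to 223 CPM in J27a and 200 to 220 CPM in J2 lf/lf, and Map2k7 85.5 to 88.3 against 88.2 to 94.7 CPM. Map3k13, the leucine zipper kinase LZK, was the member with an unadjusted p under 0.05 (0.22, SE 0.10), and its groups overlapped. Of 6 scaffold genes 4 were positive and of 5 phosphatases 1, with 0 in either list at unadjusted p under 0.05. The scaffold Mapk8ip3 was nearly identical in level, 608 ± 14.8 and 605 ± 24.3 CPM (SD, n = 3 each). Among 10 AP-1 and ATF factors 2 were positive. Atf7, which binds cAMP response elements, stood at 9.15, 7.59 and 9.02 CPM against 6.55, 6.73 and 6.50 CPM without overlap (log2 fold change 0.38, edgeR adjusted p = 0.723). Jun itself overlapped between the groups (log2 fold change -0.06, SE 0.12). Of 8 cytoskeletal targets 4 were positive, and Map1b, which stabilises microtubules in axons, was 1800 to 1846 CPM in J27a and 1494 to 1645 CPM in J2 lf/lf (0.19, unadjusted p = 0.0553).

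**Figure D2:**
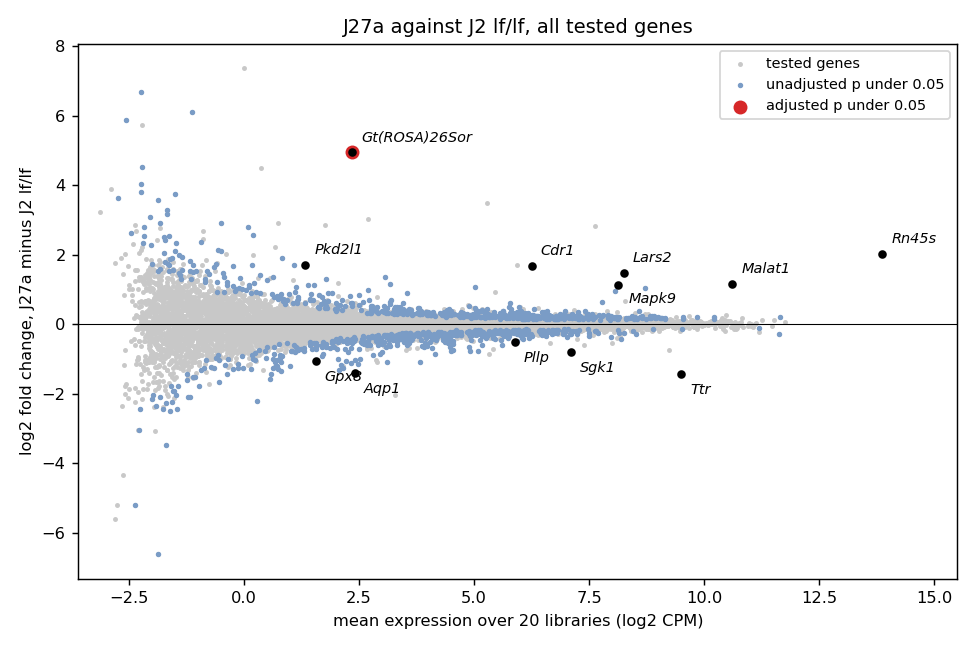
Log2 fold change of J27a minus J2 lf/lf against mean expression (log2 CPM over 20 libraries) for the 16063 tested genes, with genes at unadjusted p under 0.05 in blue, the called gene ringed in red and named genes in black. Gt(ROSA)26Sor stands alone at 4.95 among genes of its level, and Rn45s is the most abundant of the genes that differ widely.

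Differences were then ranked among genes with a mean log2 CPM of at least 1 whose libraries did not overlap. Over all tested genes 2676 (16.7%) did not overlap, 1292 (8.04%) with J27a higher and 1384 (8.62%) with J27a lower. Most differences were small: the median absolute log2 fold change of the 13089 genes at that level was 0.08, and 41 genes reached 1 in size, 23 higher and 18 lower in J27a. The ranked genes below were selected by these same values, so their separation describes them and adds no support. Of the 20 genes ranked by p, DESeq2 called 17 and edgeR on the 6 libraries alone called 10. Both used the same counts from which the genes were picked, so these calls, also where given below, are not independent support.

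After Gt(ROSA)26Sor, the smallest p among genes higher in J27a belonged to Pkd2l1, a cation channel of neurons that contact the cerebrospinal fluid. It measured 2.48, 4.38 and 4.19 CPM in J27a against 1.13, 1.11 and 1.15 CPM in J2 lf/lf. The J2 lf/lf values were almost equal and J27a replicate 1 was the lowest of its group. The log2 fold change of 1.70 (SE 0.29) fell just short (edgeR adjusted p = 0.0546), and passed in DESeq2 (adjusted p = 0.000105), with the 6 libraries alone (adjusted p = 0.034), without J27a replicate 1 and with no filter on low counts. Wild type (1.81, 1.36 and 2.54 CPM) and J27b (2.99, 2.28 and 3.22 CPM) lay above the J2 lf/lf values as well.

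Rimklb, Cacna1c and Grin2b came next. Grin2b, the NMDA receptor subunit GluN2B, measured 258, 248 and 302 CPM in J27a and 139, 180 and 200 CPM in J2 lf/lf. Its log2 fold change was 0.64 (SE 0.12, edgeR adjusted p = 0.148). Cacna1c, the pore-forming subunit of an L-type calcium channel, measured 138, 125 and 140 CPM against 95.4, 113 and 99.6 CPM (0.39, SE 0.08, edgeR adjusted p = 0.148). Rimklb, which encodes a synthetase of the neuronal dipeptide N-acetylaspartylglutamate, measured 32.5, 27.4 and 29.3 CPM against 21.6, 20.6 and 20.1 CPM (0.52, SE 0.10, edgeR adjusted p = 0.148). Rimklb in Wild type (28.04 to 31.3 CPM) and J27b (27.6 to 31.4 CPM) was at the J27a level, and its change of J2 lf/lf from Wild type was -0.53. Cacna1c and Rimklb passed in DESeq2 (adjusted p = 0.00255 and 0.0021) and with the 6 libraries alone (0.0385 and 0.034), and Grin2b in DESeq2 (0.00142). For Grin2b, Wild type (164 to 223 CPM) overlapped J2 lf/lf and J27b (212 to 259 CPM) overlapped J27a.

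The remaining genes of that ranking were Prg4 (lubricin), Alpk2 (an alpha-kinase), Zbtb16 (a zinc finger transcription factor), Setbp1 (a SET-binding nuclear protein) and Rn45s. Alpk2 measured 4.77, 6.01 and 4.59 CPM in J27a and 2.92, 1.90 and 1.43 CPM in J2 lf/lf, a log2 fold change of 1.31. Prg4 (0.83), Zbtb16 (0.62) and Setbp1 (0.43) were smaller, and edgeR adjusted p-values of these 4 ran from 0.161 to 0.227.

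Among genes lower in J27a, the smallest p belonged to Gpx8, a glutathione peroxidase of the endoplasmic reticulum. It measured 1.79, 1.78 and 2.03 CPM in J27a against 4.25, 3.05 and 4.31 CPM in J2 lf/lf (log2 fold change -1.05, SE 0.21, edgeR adjusted p = 0.148). Wild type (2.10 to 2.70 CPM) lay between the groups and J27b (2.46 to 3.72 CPM) overlapped J2 lf/lf. Gpx8 passed in DESeq2 (adjusted p = 0.00758). Sgk1, a kinase induced by glucocorticoids, measured 132, 125 and 99.0 CPM against 216, 207 and 200 CPM. Its log2 fold change was -0.81 (SE 0.19, edgeR adjusted p = 0.343). Sgk1 passed in DESeq2 (adjusted p = 0.00389) and with the 6 libraries alone (adjusted p = 0.0142). J27b was as low as J27a for Sgk1 (118, 134 and 81.5 CPM), and Wild type measured 143 to 158 CPM.

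Genes known from oligodendrocytes in the same ranking were Pllp, Sox8 and Sox10. Pllp, the myelin protein plasmolipin, measured 49.2, 50.7 and 48.2 CPM in J27a and 71.2, 68.3 and 72.7 CPM in J2 lf/lf. Both groups were tight and well apart (log2 fold change -0.52, SE 0.10), yet the change did not pass in the fit over all libraries (edgeR adjusted p = 0.148). It did pass with the 6 libraries alone (adjusted p = 0.00128) and in DESeq2 (adjusted p = 0.00738). Sox8 (-0.41) and Sox10 (-0.39) encode transcription factors of the oligodendrocyte lineage. Sox10 measured 42.3, 47.9 and 44.99 CPM against 60.3, 55.5 and 61.0 CPM. The others were Rsph1, a radial spoke protein of motile cilia (-0.92), Gadd45g, a stress-induced gene (-0.61), Pcolce2, which aids collagen processing (-0.58), Ifi27, an interferon-induced gene (-0.41), and Slain1, a microtubule plus-end protein (-0.27), with edgeR adjusted p-values of 0.161 to 0.42.

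**Figure D3:**
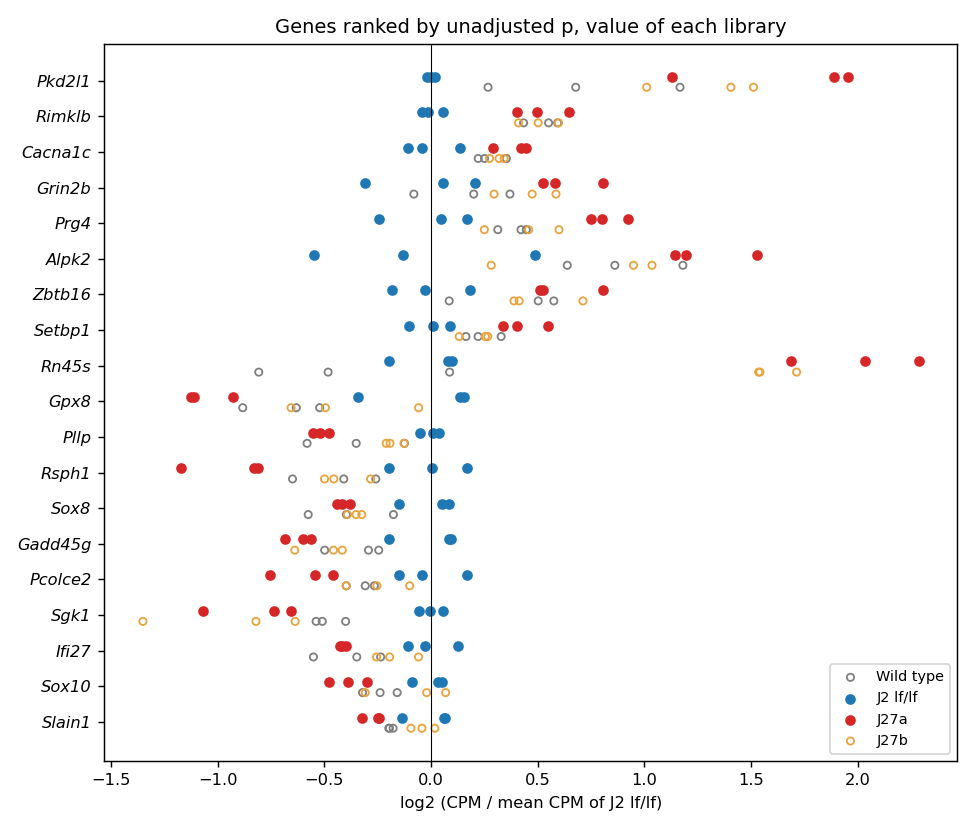
Each library's CPM relative to the J2 lf/lf mean (log2) for the 9 genes after Gt(ROSA)26Sor with the smallest unadjusted p among genes higher in J27a (top) and the 10 among genes lower in J27a (bottom). Filled points are J27a and J2 lf/lf, which do not overlap by the way the genes were chosen, and open points are Wild type and J27b.

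Ranked by size, the genes higher in J27a were Gt(ROSA)26Sor, Rn45s, Pkd2l1, Cdr1, Lars2, Tph2, Alpk2 and Malat1. Rn45s, the ribosomal RNA precursor, measured 30550, 20170 and 25660 CPM in J27a and 5466, 6718 and 6619 CPM in J2 lf/lf (log2 fold change 2.02, SE 0.40, edgeR adjusted p = 0.227). Lars2, a mitochondrial leucyl-tRNA synthetase, measured 542, 387 and 385 CPM against 152, 173 and 147 CPM (1.48, edgeR adjusted p = 0.42). Malat1, a nuclear noncoding RNA, measured 3095, 1914 and 2331 CPM against 1147, 1038 and 1076 CPM (1.17, edgeR adjusted p = 0.518). These are 3 of the 6 tested members of a list of RNA precursor and nuclear transcripts. Of the 6, 5 were positive and 1 was negative, the latter also without overlap. The list median was 0.63, and 0.09 with Rn45s left out. Rn45s made up most of the summed level of the list in every J27a and J2 lf/lf library. The summed level of that list was 23860 to 35590 CPM in J27a, 8278 to 9242 CPM in J2 lf/lf, 20750 to 23710 CPM in J27b and 5568 to 8342 CPM in Wild type. Over the whole series every library with a title number of 10 or less was at 9242 CPM or below and every library above 10 at 20170 CPM or above. Between J27a and J2 lf/lf, genotype and this division of the title numbers cannot be told apart. In J17a, the group that spans it, the library numbered 10 was at 8972 CPM and the others at 22160 and 20170 CPM. Rn45s passed in DESeq2 (adjusted p = 0.000119), as did Lars2 (adjusted p = 0.00809), and both also passed with only Wild type, J2 lf/lf, J27a and J27b in the fit. Leaving Rn45s out of the counts kept the number of called genes at 1.

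Cdr1 measured 110, 88.4 and 81.8 CPM in J27a and 34.5, 25.5 and 28.03 CPM in J2 lf/lf (log2 fold change 1.67, edgeR adjusted p = 0.622). It passed with the 6 libraries alone (edgeR adjusted p = 0.0232). The locus also gives an antisense circular RNA, and the strands cannot be told apart in these counts. Wild type was itself split, at 25.7, 31.95 and 81.2 CPM. Tph2, the enzyme of serotonin synthesis in raphe neurons, measured 7.28, 7.78 and 5.08 CPM against 3.62, 2.23 and 2.04 CPM (1.36, edgeR adjusted p = 0.763). Tph2 also passed with the 6 libraries alone (edgeR adjusted p = 0.0378). Wild type ran from 3.31 to 11.9 CPM for Tph2, wider than the difference between the groups, and the change turned to -0.14 with the title number as a term in the fit.

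The 8 genes lowest in J27a by size included Ttr, Aqp1 and Folr1 of the marker list for choroid plexus, the epithelium that secretes cerebrospinal fluid. Ttr, the thyroid hormone carrier transthyretin, measured 366, 405 and 409 CPM in J27a and 1690, 530 and 970 CPM in J2 lf/lf. The J27a values were close together and J2 lf/lf replicate 1 was the highest of all. The log2 fold change was -1.43 (SE 0.55, edgeR adjusted p = 0.669). Aqp1, a water channel, measured 3.16, 3.06 and 2.15 CPM against 10.3, 5.45 and 6.69 CPM (-1.41, SE 0.39, edgeR adjusted p = 0.435). It passed in DESeq2 (adjusted p = 0.0462) and with the 6 libraries alone (adjusted p = 0.0378). Tmem72 (-1.33), Cldn2 (-1.25), Krt18 (-1.19), Folr1 (-1.14), Trpv4 (-1.12) and 1500015O10Rik (-1.09) followed. All 10 choroid plexus markers on the list had negative changes, 8 without overlap and 5 at unadjusted p under 0.05. Over all tested genes these shares were 8.62% and 3.1% with J27a lower. The median of the markers was -1.02, and 0 passed. Their summed level was 858 to 946 CPM in J27a, 1108 to 2824 CPM in J2 lf/lf, 712 to 1769 CPM in Wild type and 913 to 2402 CPM in J27b. The count at unadjusted p under 0.05 was 8 in DESeq2, 7 with the 6 libraries alone and 0 once the title number entered the fit, where the median was -1.02. Without J2 lf/lf replicate 1 the median was -0.63 and 3 members were at unadjusted p under 0.05. Without J27a replicate 1 there were also 3, and without J2 lf/lf replicate 2 there were 9. All 6 ependymal markers, which mark the ciliated lining of the ventricles, were negative too (median -0.56). Foxj1, the master factor of motile cilia, measured 8.64, 9.07 and 9.55 CPM against 14.3, 11.8 and 12.9 CPM (-0.52, edgeR adjusted p = 0.586). In bulk tissue, fewer cells of a type and less RNA per cell cannot be told apart.

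Of 10 oligodendrocyte markers, which encode mostly myelin proteins, all 10 were negative. The median log2 fold change was -0.27, 8 did not overlap and 8 were at unadjusted p under 0.05, while 0 passed. Over all tested genes 8.62% did not overlap and 3.1% were at that p with J27a lower. Mag, the myelin-associated glycoprotein, measured 150, 173 and 141 CPM in J27a and 203, 183 and 202 CPM in J2 lf/lf. Its log2 fold change was -0.34 (SE 0.09, edgeR adjusted p = 0.42). Cnp, a phosphodiesterase of myelin, measured 335, 340 and 292 CPM against 399, 380 and 391 CPM (-0.28, SE 0.08, edgeR adjusted p = 0.42). Cldn11, the myelin tight junction protein, measured 140, 136 and 116 CPM against 161, 151 and 161 CPM (-0.27, SE 0.08). Mbp, the myelin basic protein, measured 3171, 3003 and 2488 CPM against 3728, 3349 and 3472 CPM (-0.28, SE 0.13). J27a replicate 3 was the lowest library for Mag, Cnp, Cldn11 and Mbp. The number of markers at unadjusted p under 0.05 was 4 without that library, and also 4 without J2 lf/lf replicate 1, with medians of -0.19 and -0.24. It was 9 with the 6 libraries alone, and also 9 with only Wild type, J2 lf/lf, J27a and J27b in the fit. With the title number as a term it was 10 (median -0.69). That term rests on J17a replicate 1, at 5849 CPM for this list beside 8197 and 7738 CPM in the other J17a libraries. The summed level was 5448 to 6679 CPM in J27a, 7028 to 7728 CPM in J2 lf/lf, 7011 to 7383 CPM in J27b and 5715 to 7038 CPM in Wild type. The list medians were -0.15 for J27a and 0.16 for J2 lf/lf, each against the same Wild type libraries, and -0.27 for J27a against J27b. Mag against J27b had a log2 fold change of -0.38 (edgeR adjusted p = 0.553), and 0 genes (0%) passed in that contrast, with 930 (5.79%) at unadjusted p under 0.05. Of 6 precursor markers 5 were negative (median -0.20), 3 without overlap and 1 at unadjusted p under 0.05, and 0 passed. Their summed level was 337.2 to 379.1 CPM in J27a and 398.5 to 419.4 CPM in J2 lf/lf. It was 332.8 to 412.4 CPM in Wild type and 415.2 to 423.9 CPM in J27b. Pdgfra, a receptor of the precursors, was the positive member and overlapped (68.8, 67.6 and 71.7 against 67.4, 67.7 and 65.5 CPM).

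Cholesterol, a main lipid of myelin and of neuronal membranes, is made within the brain. Of 16 genes of its synthesis 15 were negative, with a median of -0.17, and 0 passed. Of these 16, 9 did not overlap and 5 were at unadjusted p under 0.05, beside 8.62% and 3.1% lower over all genes. Cyp51, the lanosterol demethylase, measured 68.1, 68.4 and 68.2 CPM in J27a and 87.0, 78.6 and 90.7 CPM in J2 lf/lf (log2 fold change -0.32, SE 0.09, edgeR adjusted p = 0.42). Mvd, the mevalonate diphosphate decarboxylase, measured 12.98, 14.8 and 12.2 CPM against 19.5, 17.9 and 21.2 CPM (-0.55). The number at unadjusted p under 0.05 was 2 without J27a replicate 1 or without J2 lf/lf replicate 3. It was 10 with the 6 libraries alone and 4 with only Wild type, J2 lf/lf, J27a and J27b in the fit. With the title number as a term, which rests on J17a replicate 1, it was 6 and all 16 were negative (median -0.32).

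**Figure D4:**
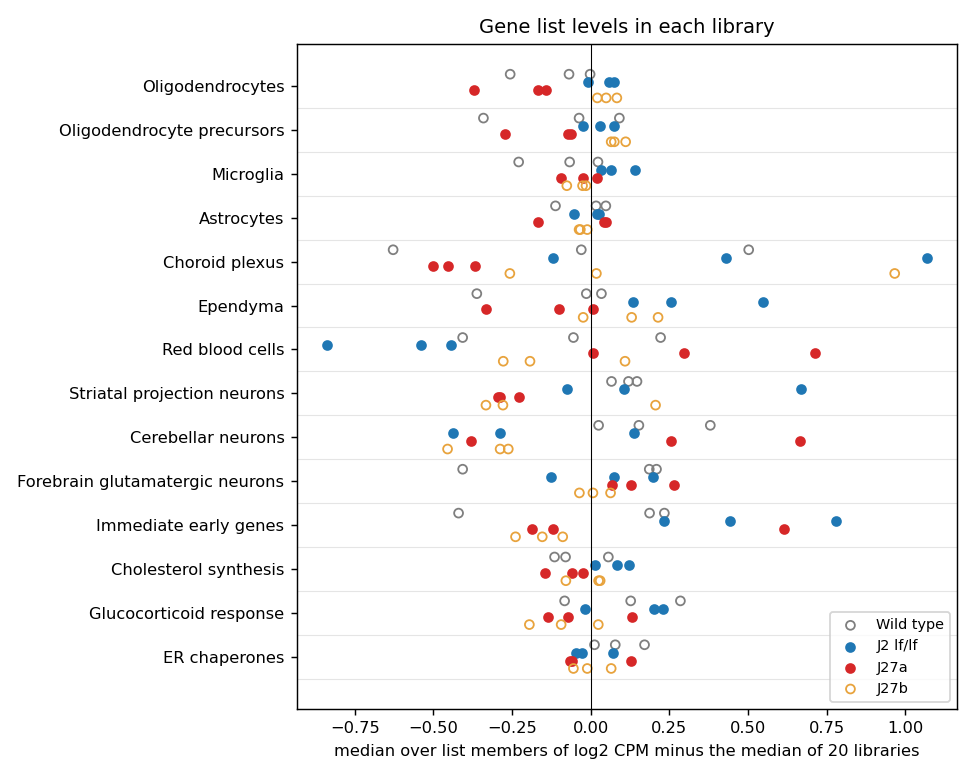
Level of 14 gene lists in each library, as the median over list members of log2 CPM minus that gene's median over 20 libraries, with J27a and J2 lf/lf filled and Wild type and J27b open. J27a lies below J2 lf/lf in every library for the oligodendrocyte, precursor, microglial, ependymal, choroid plexus, striatal and cholesterol synthesis lists. It lies above J2 lf/lf for the red blood cell list. The groups overlap for the other lists, the cerebellar and immediate early lists among them.

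Markers of other cells and regions gave values that moved with single libraries. All 10 striatal projection neuron markers were negative (median -0.51), 6 without overlap and 4 at unadjusted p under 0.05. Over all tested genes these shares were 8.62% and 3.1% with J27a lower. Drd2, the D2 dopamine receptor, measured 11.5, 11.8 and 13.4 CPM in J27a and 27.6, 17.6 and 13.7 CPM in J2 lf/lf. J2 lf/lf replicate 1 was high and replicate 3 close to J27a. Without J2 lf/lf replicate 1 or without J27a replicate 1 the count became 0, though all 10 stayed negative (medians -0.31 and -0.49). It was 2 without J27a replicate 2 or 3 and 9 without J2 lf/lf replicate 3. It was 4 with the 6 libraries alone and 7 with those less J2 lf/lf replicate 1. With only Wild type, J2 lf/lf, J27a and J27b in the fit the count was 8. The count thus also depended on which libraries were in the fit. The median turned to 0.31 once the title number entered the fit. All 5 tested red blood cell transcripts were positive (median 0.96), 4 without overlap, beside 8.04% higher without overlap over all tested genes. Hbb-bs, a beta globin, measured 386, 313 and 235 CPM against 137, 177 and 168 CPM (log2 fold change 0.95, SE 0.37, edgeR adjusted p = 0.683). The summed red blood cell level was 650 to 1075 CPM in J27a, 369 to 487 CPM in J2 lf/lf and 498 to 751 CPM in Wild type, and the count at unadjusted p under 0.05 went from 3 to 0 without J27a replicate 1 and to 1 without J2 lf/lf replicate 1. All 8 anterior pituitary markers were positive with a median of 2.45, which came from J27a replicate 3: Gh, growth hormone, measured 12.9, 0.0756 and 459 CPM in J27a and 0, 67.6 and 0.465 CPM in J2 lf/lf, and the median turned to -2.67 without that library. All 10 cerebellar neuron markers were positive (median 0.40), 0 without overlap and 0 at unadjusted p under 0.05, with summed levels of 1041 to 2027 CPM in J27a and 938 to 1426 CPM in J2 lf/lf. That count was 5 without J27a replicate 3 (median 0.66) and 10 once the title number entered the fit (median 1.47). Without J27a replicate 1 the median was 0.14. J17a replicate 1, on which the title number term rests, was at 1889 CPM for this list, beside 1017 and 952 CPM in the other J17a libraries. Of 8 thalamic neuron markers 7 were negative (median -0.21), and the summed levels overlapped (470 to 511 and 427 to 553 CPM). Lef1, a transcription factor of Wnt signalling on that list, measured 11.7, 8.73 and 9.75 CPM against 12.2, 17.8 and 14.1 CPM (log2 fold change -0.54, edgeR adjusted p = 0.676). The part of these tissues in the ranked differences was not tested.

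Lists for neurons in general, forebrain glutamatergic neurons and GABAergic interneurons had medians of 0.02, 0.08 and -0.03, and 0 of the 8 members of each were at unadjusted p under 0.05. Astrocyte markers had a median of -0.06. Slc1a2, the main astrocytic glutamate transporter, was the one member at unadjusted p under 0.05, at 3329, 3460 and 3654 CPM against 2757, 3176 and 3145 CPM (0.20, edgeR adjusted p = 0.714). All 10 microglial markers were negative (median -0.16), among them Csf1r, the receptor microglia need to survive (80.5 to 84.6 against 87.7 to 94.4 CPM), and C1qb, a complement subunit (28.8 to 34.1 against 35.6 to 39.7 CPM). Neither passed.

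Insulin and IGF signalling genes were examined because the series title refers to diet-induced metabolic syndrome. Of 12 genes 8 were positive, 5 without overlap (all higher in J27a, beside 8.04% higher over all tested genes), and 0 passed. At unadjusted p under 0.05, 3 were higher and 1 lower in J27a, beside 3.26% and 3.1% over all tested genes. Gsk3b, a kinase held in check by insulin signalling, measured 333, 333 and 347 CPM in J27a and 282, 304 and 309 CPM in J2 lf/lf (log2 fold change 0.18, SE 0.07, edgeR adjusted p = 0.611). Irs1, the adaptor of the insulin receptor, measured 29.6, 30.3 and 31.7 CPM against 26.5, 25.3 and 26.4 CPM (0.23), and Igf1r 122, 116 and 119 CPM against 101.2, 109 and 114 CPM (0.14). Ide, the insulin-degrading enzyme, was lower but overlapping: 88.3, 82.7 and 87.7 CPM in J27a against 81.2, 111 and 110 CPM in J2 lf/lf, where replicate 1 was low (-0.23, edgeR adjusted p = 0.683). Without J2 lf/lf replicate 1 the Ide change was -0.36 (edgeR adjusted p = 0.298), and with the 6 libraries alone less that one it passed (adjusted p = 0.0455). Ide was 105 to 113 CPM in every Wild type and J27b library. Btaf1, which encodes an ATPase that removes TATA-binding protein from DNA, also overlapped, at 56.5, 53.6 and 58.4 CPM against 52.6, 74.3 and 68.9 CPM (-0.22).

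Of 9 glucocorticoid-responsive genes 7 were negative and 2 positive (median -0.17), and 0 passed. At unadjusted p under 0.05, 4 were lower and 1 higher in J27a, beside 3.1% and 3.26% over all tested genes. Without overlap 3 were lower and 2 higher, beside 8.62% and 8.04%. Their summed level was 463 to 568 CPM in J27a, 619 to 626 CPM in J2 lf/lf, 425 to 538 CPM in J27b and 501 to 611 CPM in Wild type. Besides Sgk1, Nfkbia, the inhibitor of NF-kappaB, measured 22.4, 24.4 and 20.03 CPM in J27a against 30.01, 37.6 and 30.6 CPM in J2 lf/lf. Its log2 fold change was -0.55 (edgeR adjusted p = 0.475), and it passed with the 6 libraries alone (edgeR adjusted p = 0.0462). The clock gene Per1 measured 93.9, 90.2 and 91.4 CPM against 102, 122 and 124 CPM (-0.34). Zbtb16 was higher in J27a, 78.3, 63.7 and 64.4 CPM against 50.9, 39.5 and 44.0 CPM. Of 13 clock genes 7 were positive, and Per3 measured 39.2, 45.5 and 43.2 CPM against 30.8, 33.8 and 38.7 CPM (0.31, edgeR adjusted p = 0.42). Of 13 immediate early genes, which neuronal activity induces, 11 were negative with a median of -0.32 and 0 at unadjusted p under 0.05. J27a replicate 3 was unlike the other J27a libraries here. Arc, a synaptic plasticity gene, measured 65.6, 79.9 and 178 CPM in J27a and 124, 136 and 209 CPM in J2 lf/lf. Without J27a replicate 3 the median was -0.64 and 7 members were at unadjusted p under 0.05. ER chaperones (median -0.01, 4 of 11 positive) and heat shock proteins (0.04, 7 of 10 positive) had 0 members at unadjusted p under 0.05.

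The ranked genes included several on chromosome 6, the chromosome of Gt(ROSA)26Sor, and its genes were therefore counted after these values were seen. At unadjusted p under 0.01 there were 27 of 760 tested genes (3.55%), beside 255 of 15328 (1.66%) over all genes with a position. This was the highest share of the 20 chromosomes, chromosome 9 being next with 2.36%. Counting Gt(ROSA)26Sor itself, there were 16 of 297 (5.39%) within 25 Mb of it, 9 higher and 7 lower in J27a. On the rest of the chromosome there were 11 of 463 (2.38%). Near the locus these were, besides Rimklb, Cacna1c and Grin2b, genes such as Ninj2, a membrane adhesion protein (log2 fold change 1.41), Foxm1, a cell cycle transcription factor (-0.98), and Slc25a18, a mitochondrial glutamate carrier (-0.38). Their changes of J27a from Wild type were -0.82, 0.41 and 0.01, and those of J2 lf/lf from Wild type -2.23, 1.38 and 0.39, with the same Wild type libraries in both. For most of the 16, J2 lf/lf was the farther from Wild type by fitted change. J27a was the farther for fewer, among them Clec7a and Grin2b. Clec7a, an innate immune receptor, had 1.85 for J27a and -0.48 for J2 lf/lf, and Grin2b 0.47 and -0.17. These genes are examples picked from the 16. No test was made of this share, since the region was chosen from the data.

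**Figure D5:**
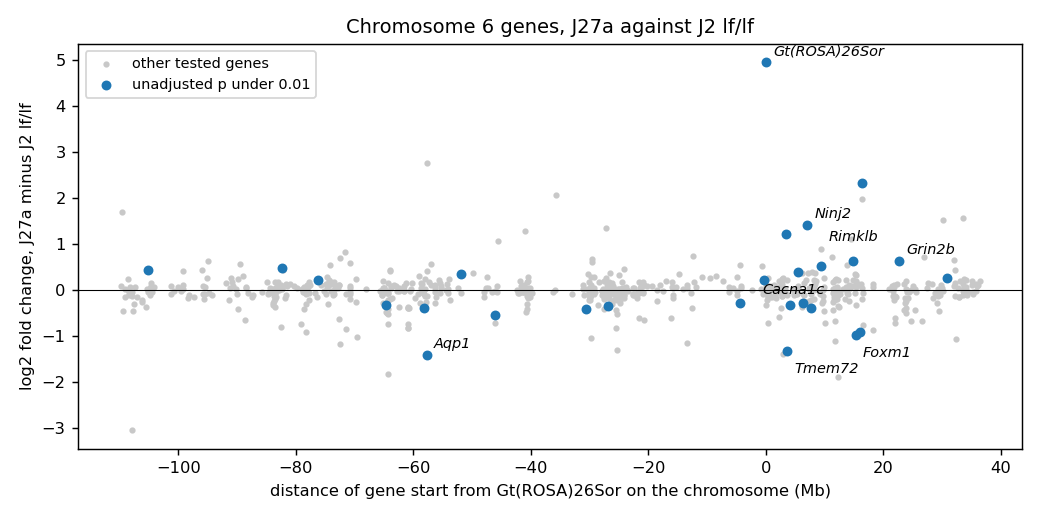
Log2 fold change of J27a minus J2 lf/lf for the 760 tested genes of chromosome 6 against the distance of their start from that of Gt(ROSA)26Sor in Mb, with the 27 genes at unadjusted p under 0.01 in blue. Of these, 16 lie within 25 Mb of Gt(ROSA)26Sor, counting that gene itself, in both directions of change.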

How the data were processed

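Poly(A)-enriched, paired-end libraries were made from total RNA of mouse brain, per the labels. The authors deposited estimated counts per gene and TPM values, made with cutadapt and RSEM on mm10 per the submitters' processing notes. The sources used here give no versions, annotation or use of strand. Of the estimated counts 4.11% were not whole, and all were rounded. Of 23845 genes in the tables, 4425 were at 0 throughout. Library totals ran from 21395041 to 33828755 over 20 libraries.

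The test was edgeR 4.0.16 (R 4.3.3): TMM factors (0.976 to 1.03 in these 6), filterByExpr, a robust quasi-likelihood fit of all 20 libraries in 7 groups (common dispersion 0.0144), two-sided, adjusted by Benjamini-Hochberg over 16063 genes. Alternatives, 18 planned and 2 added after seeing the data, used DESeq2 1.42.0, limma 3.58.1 on log2(TPM + 1) and log2(TPM + 0.1), other filters and other sets of libraries. The edgeR script was tested on simulated counts. No replicate pair agreed within sampling noise. Positions are from GENCODE M21, matched by symbol for 15328 tested genes.

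Named are the JNK genes, Gt(ROSA)26Sor, Ide, Btaf1 and Rn45s, every called gene, the 10 smallest p and 8 largest changes in each direction (mean log2 CPM of at least 1, no overlap), members of 34 gene lists (33 with tested members) at unadjusted p under 0.05 or as examples in list order, and neighbours of Mapk9. Tgtp2, the genes beside Gt(ROSA)26Sor and those of chromosome 6 were chosen after their values were seen, as were list examples beyond the first 3. Comparison and lists were chosen with earlier results of these data known.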

Additional observations from a re-analysis of the deposited data

How the results depend on the processing

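The count of 1 called gene became 26 with the DESeq2 Wald test, 26 with edgeR on only the 6 libraries compared, 3 with only Wild type, J2 lf/lf, J27a and J27b, and 2 with no filter on low counts or with limma on log2(TPM + 1) without a filter. Leaving out single libraries gave 1 to 2, Pkd2l1 being added without J27a replicate 1 and Mapk9 without J2 lf/lf replicate 3. Fits added after seeing the data, the 6 libraries without J2 lf/lf replicate 3 and without replicate 1, called 32 and 17 genes. DESeq2 called 17 genes higher (Gm7367 at the unusable value of 38.6 included) and 9 lower, the 6-library fit 12 and 14. Mapk9 passed with DESeq2 (log2 fold change 1.14), and in the 6-library fit without J2 lf/lf replicate 3 (0.78). Leaving out single libraries gave Mapk9 0.78 to 1.38, and 3 of 20 alternatives were past the threshold. Of 719 values of 36 other named genes, 670 kept direction and side of the threshold, 47 passed where the main test did not and 2 changed sign, both with the title number (above 10 or not) as a term: Mapk10 (-0.0207) and Tph2 (-0.1394). The median of 7 of 33 gene lists changed sign with it too. That term rests on 1 J17a library, the single group that spans the split. The cause of these differences was not tested, beyond the spread and libraries each fit uses.

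With the replicate number as a block 2 genes were called, Sgk1 being added (lower in J27a). Deviations of same-numbered libraries correlated at 0.0095, -0.11 and 0.029, and not every library correlated best with its own. The labels do not say whether same-numbered libraries were paired, and correlations from so few libraries cannot settle it. The low counts of Gt(ROSA)26Sor in J2 lf/lf (2 to 10) limit the precision of its fold, and 3 libraries per group limit all others.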
